A study of Mus musculus with 8 samples.

Results

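Acinar cells make up most of the exocrine pancreas. They synthesise digestive enzymes as inactive or packaged precursors, store them in zymogen granules and release them into the ducts, and their enzyme mRNAs are among the most abundant transcripts of the normal organ. A tumor grown in the pancreas lies embedded in this tissue. The 8 KPC tumors of the series were grouped by their raw count of Prss2, a trypsinogen mRNA. The 5 tumors with at least 100 counts (WT replicates 1 to 4 and C3-/- replicate 1) are called acinar-containing, and the 3 tumors below 100 counts (C3-/- replicates 2 to 4) are called acinar-poor.

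The tumors were grown from KPC FC1245 cells, a mouse pancreatic cancer line isolated from a tumor of an engineered mouse in which Pdx-1-Cre activates alleles that include Trp53 R172H. In each 12-week-old male host, 250000 cells in 50 μL of PBS were placed orthotopically in the tail of the pancreas, and the endpoint was day 14. The hosts were C57BL/6J (WT, 4 tumors) or carried a germline null allele of complement C3 on the same background (C3-/-, 4 tumors), and all 8 received the same cell line, so a tumor of a C3-/- host still holds injected cells that were not bred from the null strain. Poly-A RNA of whole tumors was sequenced, and the total per tumor was 13.3 to 23.4 M counts over 22174 to 25343 genes with a count.

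The deleted host gene gave 3370, 5652, 2998 and 7623 C3 counts in the WT tumors and 2338, 2387, 1591 and 1842 in the C3-/- tumors. The mean C3 level was 296 ± 100.1 CPM in WT (SD, n = 4) and 111 ± 15.7 CPM in C3-/- (SD, n = 4), where CPM is the count scaled to a common library size after TMM normalization. The log2 fold change of C3 was -1.42 (SE 0.23). Its adjusted p differed between tools, at 0.933 by edgeR's quasi-likelihood method and 1.28e-05 by DESeq2. The grouping cuts across this label only once. Every WT tumor is acinar-containing, so between the 5 and the 3 tumors acinar content and host genotype cannot be told apart, and C3-/- replicate 1 against the other C3-/- tumors is the only contrast within a genotype.

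Prss2 (ENSMUSG00000057163, chr6:41498721-41502013, GRCm39, plus strand) gave 782, 411, 402 and 380 counts in WT replicates 1 to 4, 5110 in C3-/- replicate 1, and 24, 8 and 15 in C3-/- replicates 2 to 4. The tumors nearest to the threshold were thus WT replicate 4 at 380 counts and C3-/- replicate 2 at 24 counts. These values chose the groups and are a description. On the CPM scale the mean level of Prss2 was 73.0 ± 93.6 in acinar-containing (SD, n = 5) and 0.890 ± 0.424 in acinar-poor tumors (SD, n = 3), and the large SD of the first group came with C3-/- replicate 1, since the 4 WT tumors alone had 31.5 ± 13.3 CPM.

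Ctrb1 (ENSMUSG00000031957, chr8:112413151-112417642, minus strand), which encodes chymotrypsinogen B, gave 2656, 1071, 1590 and 1308 counts in WT, 17042 in C3-/- replicate 1, and 129, 42 and 37 in the acinar-poor tumors. Try5 (ENSMUSG00000036938, chr6:41288167-41293775, minus strand), another trypsinogen of the same cluster as Prss2, gave 360, 461, 482 and 321 counts in WT, 3978 in C3-/- replicate 1, and 12, 22 and 5 in the acinar-poor tumors. Neither gene overlapped between the groups, and in both the single C3-/- tumor stood above all 4 WT tumors. The lowest acinar-containing tumor exceeded the highest acinar-poor tumor 12-fold for Prss2, 7.70-fold for Ctrb1 and 9.85-fold for Try5. In bulk tissue, fewer acinar cells and less enzyme mRNA per acinar cell cannot be told apart.

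**Figure D1:**
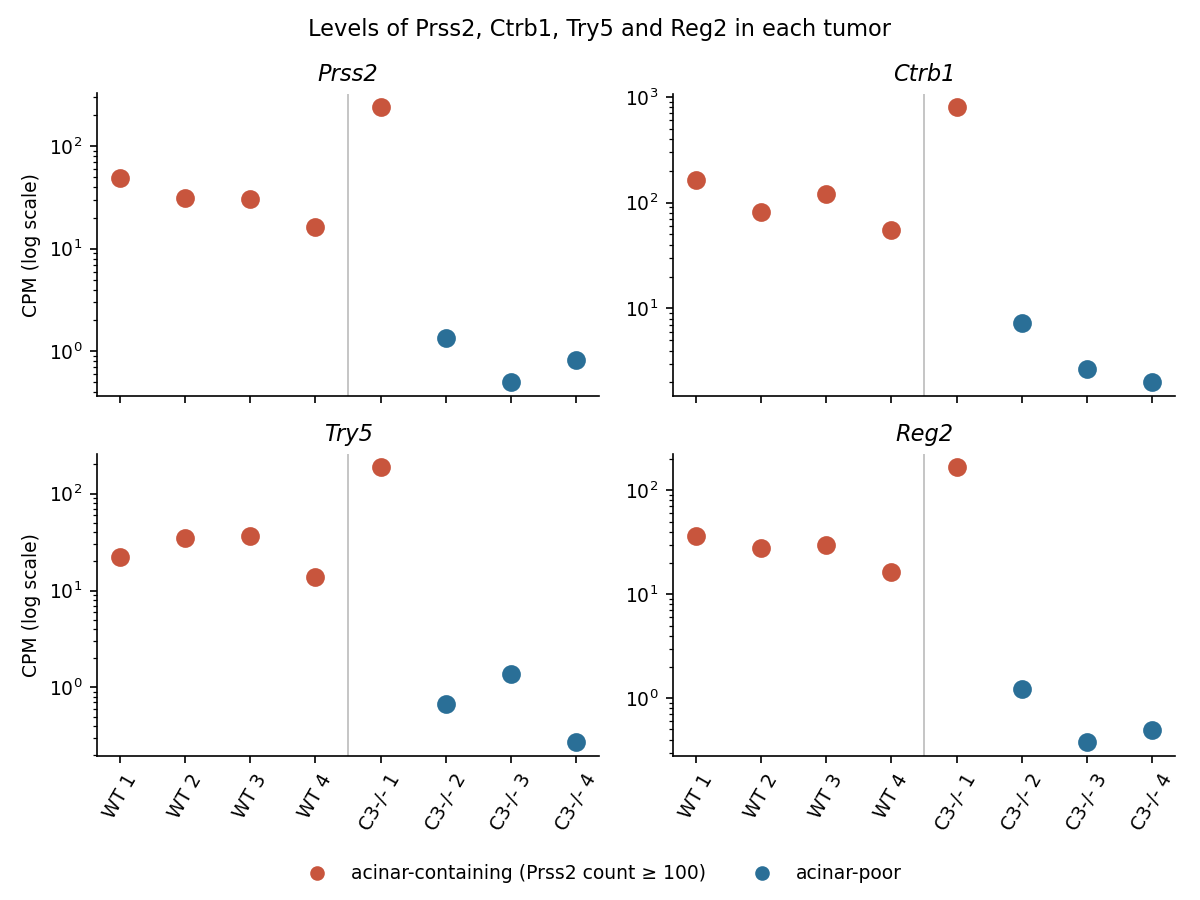
Level of Prss2, Ctrb1, Try5 and Reg2 in each of the 8 tumors, in CPM on a log axis, with 1 point per tumor, acinar-containing tumors in red and acinar-poor tumors in blue. In each panel C3-/- replicate 1 is the highest point, the 4 WT tumors lie between it and the acinar-poor tumors, and the groups do not overlap.

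Acinar genes are commonly driven by the PTF1 complex, in which PTF1A with a bHLH partner binds an E-box (CANNTG) and RBPJL or RBPJ binds a nearby TC-box (TTTCCC). The 250 bases before the start of each gene's canonical transcript were searched on both strands for CANNTG followed after 3 to 7 bases by TTTCCC (GENCODE vM39, GRCm39). For some genes, Try5 and Reg2 among them, the gene's full extent in the deposited table begins further upstream than this transcript, so the window lies within the gene. The pair was found in 4 of 28 digestive enzyme promoters (14.3%), in 0 of 7 Reg promoters and in 90 of 17333 promoters of all protein-coding genes (0.519%). The 4 windows are shown because they belong to enzymes whose levels are given here and carry both boxes at the same spacing. Each is 60 bases, 5′ to 3′ on the strand of its gene, with the E-box and the TC-box in capitals, and in Try10 and Try5 the pair reads on the opposite strand.
Cela1, chr15:100585873-100585932, minus strand: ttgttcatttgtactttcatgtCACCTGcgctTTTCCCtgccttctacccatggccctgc
Ctrb1, chr8:112417810-112417869, minus strand: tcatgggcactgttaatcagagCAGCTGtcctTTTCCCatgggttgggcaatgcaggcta
Try10, chr6:41330979-41331038, plus strand: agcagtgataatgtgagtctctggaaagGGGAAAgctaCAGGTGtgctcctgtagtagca
Try5, chr6:41291711-41291770, minus strand: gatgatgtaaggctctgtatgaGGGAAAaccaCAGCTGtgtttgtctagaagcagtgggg
The spacing is 4 bases in all 4 windows. The E-box variant CACCTG alone, which overlaps the pair in Cela1 and Try10, was present in 12 of 28 enzyme promoters (42.9%) and in 17.6% of all protein-coding promoters, and TTTCCC alone in 10 of 28 (35.7%) and in 24%. A match of these letters is a description of the sequence and not evidence of binding.

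Genes with few counts were filtered out. Over the 16610 that were kept, a gene was called separated where every tumor of one group lay above every tumor of the other and the group means of log2 CPM differed by at least 1, which is 2-fold. By this rule 64 genes (0.385%) were higher and 105 genes (0.632%) were lower in acinar-containing than in acinar-poor tumors. The numbers depend on the filter and on single tumors. They became 123 and 326 without a filter and 19 and 30 with at least 10 counts in every tumor, 147 higher genes were found without C3-/- replicate 4, and without WT replicate 3 the lower genes no longer outnumbered the higher ones (72 and 76). No test is given, because the tumors were selected on one of these genes. Of the 64 higher genes, 25 belonged to the lists of acinar genes and 6 to the Reg family. They made up nearly all of the large differences, with 25 acinar and 5 Reg genes among the 32 genes that were at least 4-fold higher. The 105 lower genes held no member of any list, their median difference was 1.23 on the log2 scale, and 1 of them reached 4-fold.

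The acinar lists held 59 genes, of which 57 were in the table and 45 passed the filter. Genes such as Try4 or Pnlip passed only through the tumors in which they were high, so numbers of separated genes describe these tumors and do not test the list. Over all genes tested, 0.385% were higher by the same rule, and this share belongs beside each count of separated acinar genes below. The median difference in log2 CPM, acinar-containing minus acinar-poor, was 3.84 over the 45 genes and -0.01 over all genes tested. Measured separately against the acinar-poor tumors, the median over the same genes was 3.24 for the WT tumors and 5.90 for C3-/- replicate 1.

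**Figure D2:**
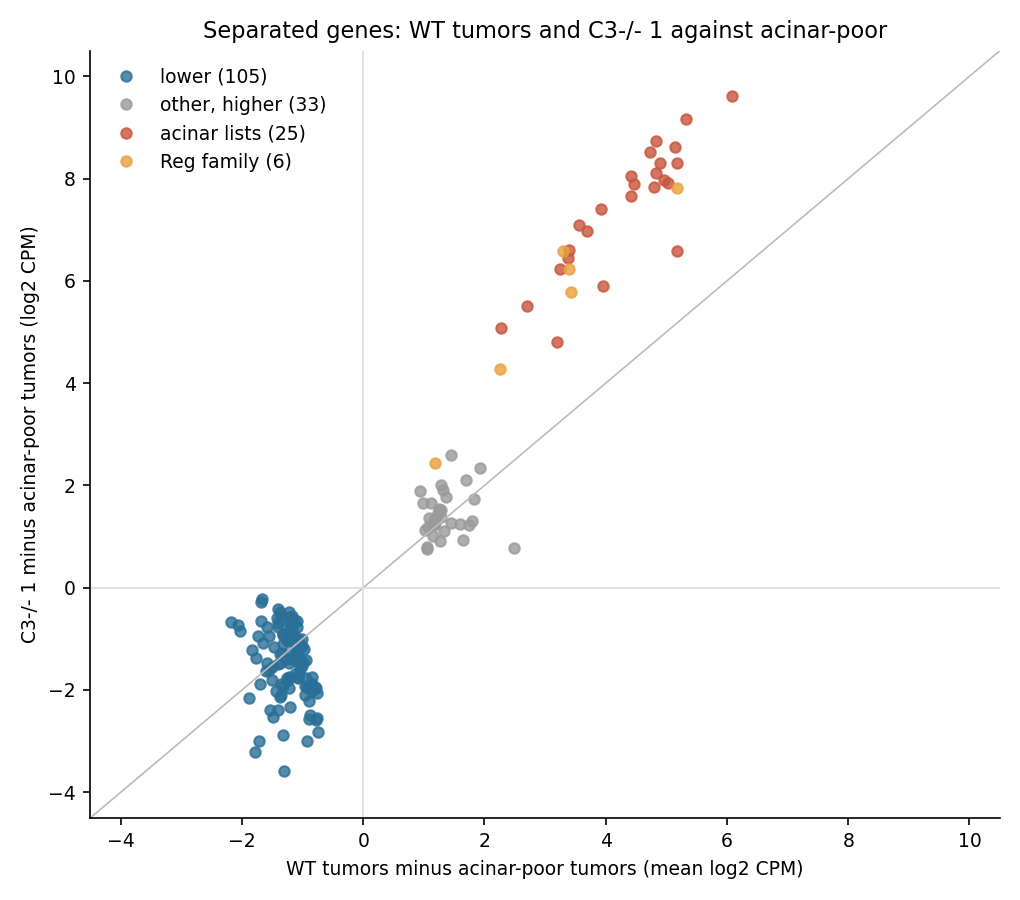
Difference in log2 CPM from the mean of the 3 acinar-poor tumors, for the mean of the 4 WT tumors on the x axis and for C3-/- replicate 1 on the y axis, over the 64 higher and 105 lower genes, which were chosen by this difference. The 25 genes of the acinar lists and most Reg genes lie above the grey line of equality, far from the other 33 higher genes.

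All 4 trypsinogens that passed the filter were separated (Prss2, Try5, Prss3b and Try4). Prss3b (ENSMUSG00000029882, chr6:41007202-41012443, minus strand), which the deposited table holds under the older symbol 2210010C04Rik, gave 625, 27, 345 and 288 counts in WT, 4101 in C3-/- replicate 1 and 12, 9 and 1 in the acinar-poor tumors. WT replicate 2 was the lowest acinar-containing tumor and lay 3.03-fold above the highest acinar-poor tumor in CPM. Try4 gave 398, 1, 183 and 155 counts in WT and 1399 in C3-/- replicate 1 and was at 0 in the 3 acinar-poor tumors, so its separation in WT replicate 2 rests on 1 count, and C3-/- replicate 1 was at least 377-fold higher than the acinar-poor tumors, each taken at a floor of 3 counts. Of the 3 other trypsinogens listed, Try10 and Prss3 did not pass the filter, and Prss1 was not analysed here. Try10 gave 8, 11, 6 and 5 counts in WT, 21 in C3-/- replicate 1 and 0 in all 3 acinar-poor tumors. Try4 and Try5 share 30.1% and 25.5% of their 100-base words with another gene, while Prss2, Prss3b and Ctrb1 share none, so counts of the first pair are less certain.

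Among chymotrypsins and elastases, 3 of the 5 genes that passed were separated (Ctrb1, Cela2a and Cela3b). Cela3b, an elastase-like pancreatic protease, had the largest difference of any gene, 6.79 on the log2 scale (SE 1.16), with 612, 22, 345 and 200 counts in WT, 2751 in C3-/- replicate 1, and 0, 0 and 4 in the acinar-poor tumors. The exceptions were Ctrl, which gave 5 counts in WT replicate 2 against 18, 34 and 42 in the acinar-poor tumors, and Cela1. Cela1, an elastase also known outside the pancreas, gave 1710, 567, 1281 and 1564 counts in WT, 3009 in C3-/- replicate 1, and 989, 603 and 648 in the acinar-poor tumors, and the groups overlapped.

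Per kilobase of gene length, Cela1 held 59.0% to 66.9% of the summed level of the 29 enzymes in the acinar-poor tumors and 2.64% to 14.3% in the acinar-containing tumors. Ctrb1 ranked first per kilobase in all 5 acinar-containing tumors, with 31.3% to 43.1% of the enzyme signal, and second after Cela1 in the 3 acinar-poor tumors, with at most 20.2%. These shares depend on one another and on the grouping marker Prss2, which is in the sum. With Cela1 left out, a setting chosen after the counts were seen, Ctrb1 held 34.7% to 47.1% of the rest in acinar-containing and 30.3% to 49.3% in acinar-poor tumors, which overlapped.

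The carboxypeptidases Cpb1 and Cpa1, which trim peptides from the C-terminal end, were separated. Cpb1 gave 627, 21, 262 and 277 counts in WT, 2667 in C3-/- replicate 1 and 8, 0 and 7 in the acinar-poor tumors. Cpa1 gave 638, 105, 201 and 177 counts, then 2578, then 8, 12 and 0 in the same order. In raw counts WT replicate 2 was the lowest acinar-containing tumor for both, and in CPM it was so for Cpb1, while Cpa1 was at 7.91 CPM in WT replicate 2 and 7.53 in WT replicate 4.

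Of 6 lipases and cofactors, 4 were separated (Pnliprp1, Pnliprp2, Cel and Clps, the last encoding colipase). Pnliprp1 gave 447, 97, 253 and 210 counts in WT, 3206 in C3-/- replicate 1 and 19, 13 and 2 in the acinar-poor tumors. Pnlip, the main triglyceride lipase of pancreatic juice, gave 653, 0, 147 and 171 counts in WT, 1668 in C3-/- replicate 1 and 2, 0 and 0 in the acinar-poor tumors, so it overlapped through WT replicate 2 alone. Pla2g1b, a secreted phospholipase, overlapped for the same tumor, with 3 counts in WT replicate 2 and 1 to 12 in the acinar-poor tumors.

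Of 6 amylase and ribonuclease genes that passed, 5 were separated. Rnase1, the pancreatic ribonuclease, gave 246, 16, 97 and 113 counts in WT, 1195 in C3-/- replicate 1 and 1, 0 and 3 in the acinar-poor tumors. Amy2a1 gave 175, 56, 135 and 182 counts in WT, 442 in C3-/- replicate 1 and 7, 1 and 0 in the acinar-poor tumors. Amy2a4 was at 0 in all acinar-poor tumors and gave 14, 64, 69 and 29 counts in WT and 489 in C3-/- replicate 1. The Amy2a copies shared 47.4% to 100% of their 100-base words with another gene, so how their reads were divided between them is uncertain. Amy1, the salivary and liver amylase, overlapped, with 11 to 126 counts against 22 to 61.

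Of 8 granule and secreted proteins, 6 were separated (Klk1, Gp2, Sycn, Zg16, Cuzd1 and Spink1). Gp2, the major zymogen granule membrane glycoprotein, gave 163, 11, 127 and 85 counts in WT, 1030 in C3-/- replicate 1 and 14, 0 and 2 in the acinar-poor tumors, where WT replicate 2 lay below C3-/- replicate 2 in counts and above it in CPM. The other 2 members did not follow the grouping. Dmbt1, a mucin-like secreted glycoprotein of many epithelia, gave 15408 to 31927 counts in acinar-containing and 16693 to 47400 in acinar-poor tumors. Tff2, a trefoil peptide of gastric and pancreatic mucus, gave 367 to 1800 counts against 682 to 1332.

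The median difference over 7 secretory and metabolic genes of acinar cells that passed was 0.67 on the log2 scale, and over 6 transcription factors it was -0.12, against -0.01 over all genes. None of these 13 was separated, a count that means little beside the 0.385% of all genes that were higher and the 0.632% that were lower. Xbp1, which drives expansion of the endoplasmic reticulum, gave 3221 to 6078 counts in acinar-containing and 4097 to 5042 in acinar-poor tumors, a difference of -0.13 in mean log2 CPM (SE 0.10). Gata6 and Gata4, transcription factors of pancreas development, differed by 0.06 (SE 0.12) and -0.19 (SE 0.12). Rab3d, a granule GTPase, differed by 0.03 (SE 0.22), and Gatm, which makes the creatine precursor guanidinoacetate, by 0.09 (SE 0.10). Low-count members differed more but with large errors, as for the zinc transporter Slc39a5 at 0.84 (SE 0.48), the water channel Aqp8 at 0.84 (SE 0.58), the methyltransferase Gnmt at 0.84 (SE 0.78) and the disulfide isomerase Pdia2 at 0.67 (SE 0.61), whose count was 168 in C3-/- replicate 1 and 13 to 25 elsewhere. Ptf1a and Rbpjl, which encode the acinar-restricted subunits of PTF1, did not pass the filter. Ptf1a gave 0 to 7 counts in acinar-containing tumors and 0 in all acinar-poor tumors, and Rbpjl gave 61 counts in C3-/- replicate 1, 2 to 13 in WT and 0 to 9 in the acinar-poor tumors.

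The Reg genes encode secreted C-type lectins that are made by acinar cells, most of all in an inflamed or injured pancreas. The 6 members that passed were all separated and higher, against 0.385% of all genes tested, with a median difference of 3.93 on the log2 scale. Reg2 (ENSMUSG00000023140, chr6:78372606-78385089, plus strand) gave 587, 372, 394 and 387 counts in WT, 3555 in C3-/- replicate 1 and 22, 6 and 9 in the acinar-poor tumors. Reg3b gave 462, 769, 422 and 318 counts in WT, 3217 in C3-/- replicate 1 and 77, 49 and 24 in the acinar-poor tumors. Reg1, Reg3a and Reg3d differed by 2.66, 3.96 and 3.97 on the log2 scale and Reg3g by 1.44, and the remaining member, Reg4, gave no more than 3 counts in any tumor.

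As a share of all counts, digestive enzymes made up 0.0757%, 0.0236%, 0.0459% and 0.0272% in WT replicates 1 to 4, 0.260% in C3-/- replicate 1 (exact 95% interval 0.258% to 0.262%), and 0.00772%, 0.00507% and 0.00475% in the acinar-poor tumors (lowest of these 0.00444% to 0.00509%). Intervals cover counting error only. Even in the tumor richest in them, enzyme transcripts were a small part of the RNA. With all acinar lists pooled, the share was 0.195% to 0.436% (median 0.237%) in acinar-containing and 0.163% to 0.360% in acinar-poor tumors and overlapped. Dmbt1 alone held 0.0884% to 0.2% and 0.0941% to 0.272% of the counts.

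The acinar-containing tumors were not alike. C3-/- replicate 1 exceeded the median of WT replicates 1, 3 and 4 in each of the 24 enzymes that passed the filter, by 1.46-fold (Cela1) to 18.5-fold (Amy2a4), with a median of 6.49-fold. WT replicate 2 lacked part of the program, a pattern chosen after its values were seen. Of the 38 enzyme, granule and Reg genes that passed, 16 were below 25% of the median of the other WT tumors in WT replicate 2, 15 were at 75% or more, and 7 were between. Among the 24 enzymes these numbers were 12, 7 and 5.

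The lowest were Pnlip at 0 counts, Try4 at 0.547% of the other WT tumors, Ctrl at 3.21%, Cela3b at 6.38% and Prss3b at 7.83%. In the same library Prss2 was at 102%, Try5 at 155%, Ctrb1 at 67.4%, Reg2 at 94.4%, Reg3b at 202% and Reg1 at 303%. Prss2, which defines the grouping, was thus among the genes retained in WT replicate 2, and Prss2 alone does not show how much of the enzyme program a tumor holds.

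**Figure D3:**
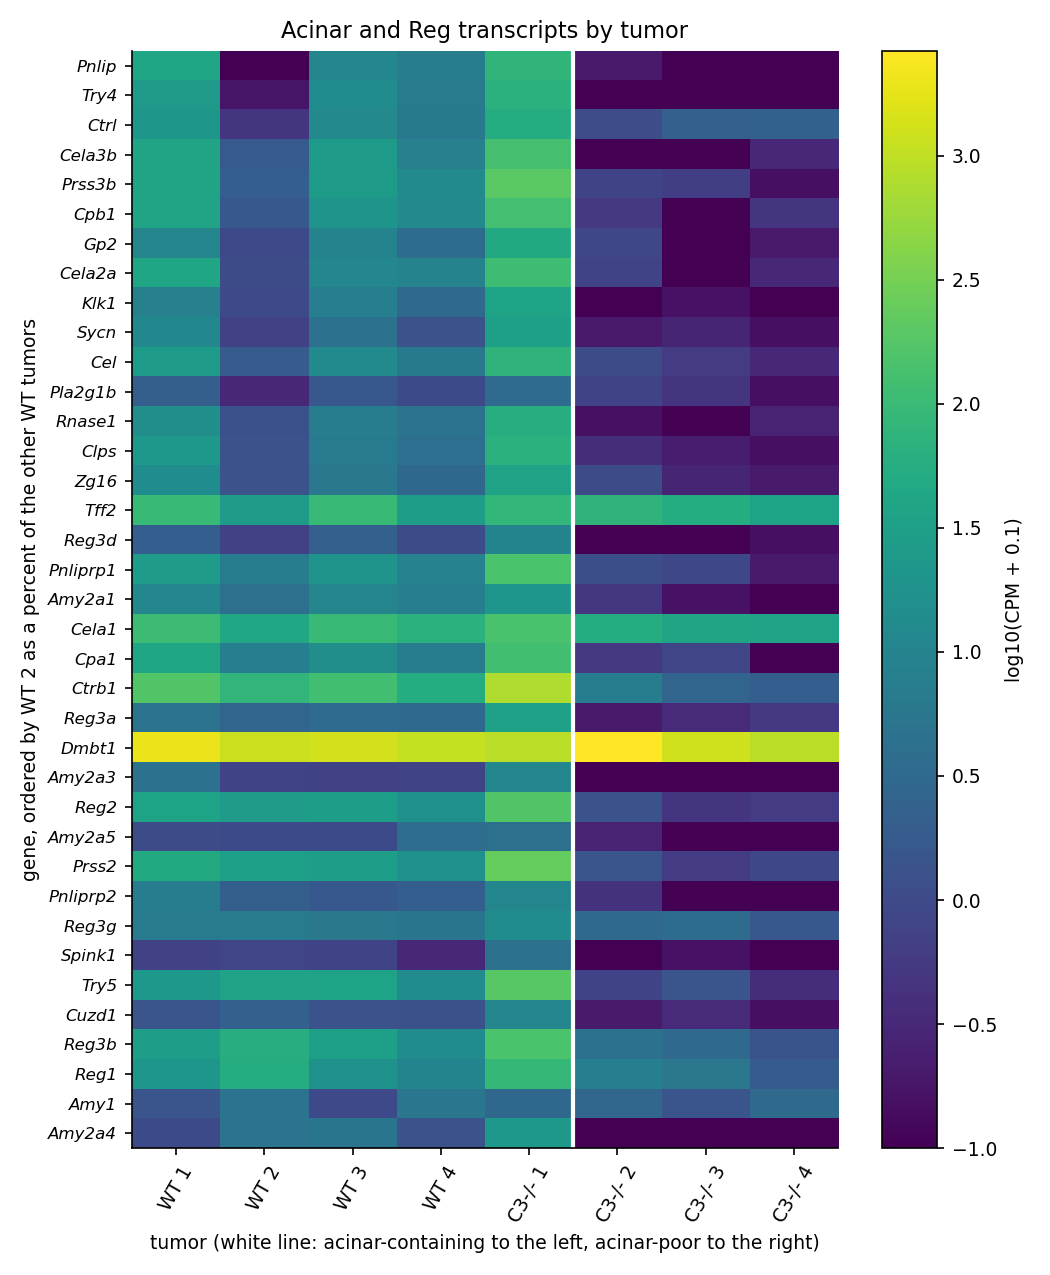
log10 of CPM plus 0.1 for the acinar and Reg genes shown (rows) in the 8 tumors (columns), with genes ordered from the lowest to the highest level in WT 2 relative to the other WT tumors, and a white line between the 5 acinar-containing and the 3 acinar-poor tumors. Most upper rows are darker in WT 2 than in the other 4 acinar-containing tumors, and C3-/- 1 is the brightest of the 5 in most rows. Dmbt1, Cela1, Tff2 and Amy1 overlap across the line, and so do Pnlip, Ctrl and Pla2g1b through the low level of WT 2.

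Outside the acinar and Reg genes, the largest differences among the remaining 33 higher genes were those of Ahsg and Hp. Hp, the acute-phase protein haptoglobin, which fat also makes, gave 692, 8422, 907 and 1949 counts in WT, 3149 in C3-/- replicate 1 and 406, 447 and 703 in the acinar-poor tumors. Ahsg, which encodes the liver protein fetuin-A, was higher by 2.14 on the log2 scale, but most of its counts lay in WT replicate 4 and the other 7 tumors had 2 to 14. Retnlg, a resistin-like protein of neutrophils, gave 42 to 233 counts against 20 to 45, and did not overlap once scaled to library size. Mt1, a metal-binding metallothionein, was high in every tumor, with 4883 to 10067 counts in acinar-containing and 3032 to 3617 in acinar-poor tumors. Gm45774, Gm6741 and 9330160F10Rik, 2 lncRNAs and a processed pseudogene, had at most 62 counts in any tumor.

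Markers of other tissues varied between single tumors. The adipocyte list summed to 999 CPM in WT replicate 2 and 311 in C3-/- replicate 1, against 112 to 173 in the other WT tumors and 77.9 to 191 in the acinar-poor tumors. The median difference over the 8 adipocyte genes that passed was 1.24 on the log2 scale. Against the acinar-poor tumors it was 1.15 for the WT tumors and 2.09 for C3-/- replicate 1. Adipoq, the fat hormone adiponectin, gave 595 counts in WT replicate 2, 194 in C3-/- replicate 1 and 3 to 70 elsewhere, and Cidec, a lipid droplet protein, was the only adipocyte gene separated. Fabp4 and Car3, the most abundant of the list, gave 4146 and 3071 counts in WT replicate 2. The hepatocyte list summed to 30.5, 204, 30.1 and 110.3 CPM in WT, 48.0 in C3-/- replicate 1 and 20.5, 15.5 and 15.7 in the acinar-poor tumors, without overlap, and the median difference over the 7 members that passed was 1.92 on the log2 scale. Of these 7, however, Ahsg alone was separated. In C3-/- replicate 1, 2 of the 7 were at least 2-fold above the other C3-/- tumors, against 4.07% of all genes tested. Cyp2e1, an oxidase that fat also expresses, held 2472 of the counts in WT replicate 2, and Alb, which encodes albumin, 840 in WT replicate 4.

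The islet list summed to 144 CPM in WT replicate 2 and to 31.8 to 46.7 CPM in the other 7 tumors, where Pdx1, a transcription factor of pancreas and islet present in all 8 tumors at 393 to 893 counts, made up most of it. Ins2, Ins1 and Gcg gave 425, 194 and 134 counts in WT replicate 2 and at most 21, 7 and 9 in any other tumor. WT replicate 2 thus held islet and fat transcripts together with the partial enzyme program. Skeletal muscle genes went another way, with 1918, 15.7, 30.7 and 4425 CPM in WT, 2097 in C3-/- replicate 1 and 24.1, 1723 and 3971 in the acinar-poor tumors. The part of these transcripts in the difference between the groups was not tested.

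**Figure D4:**
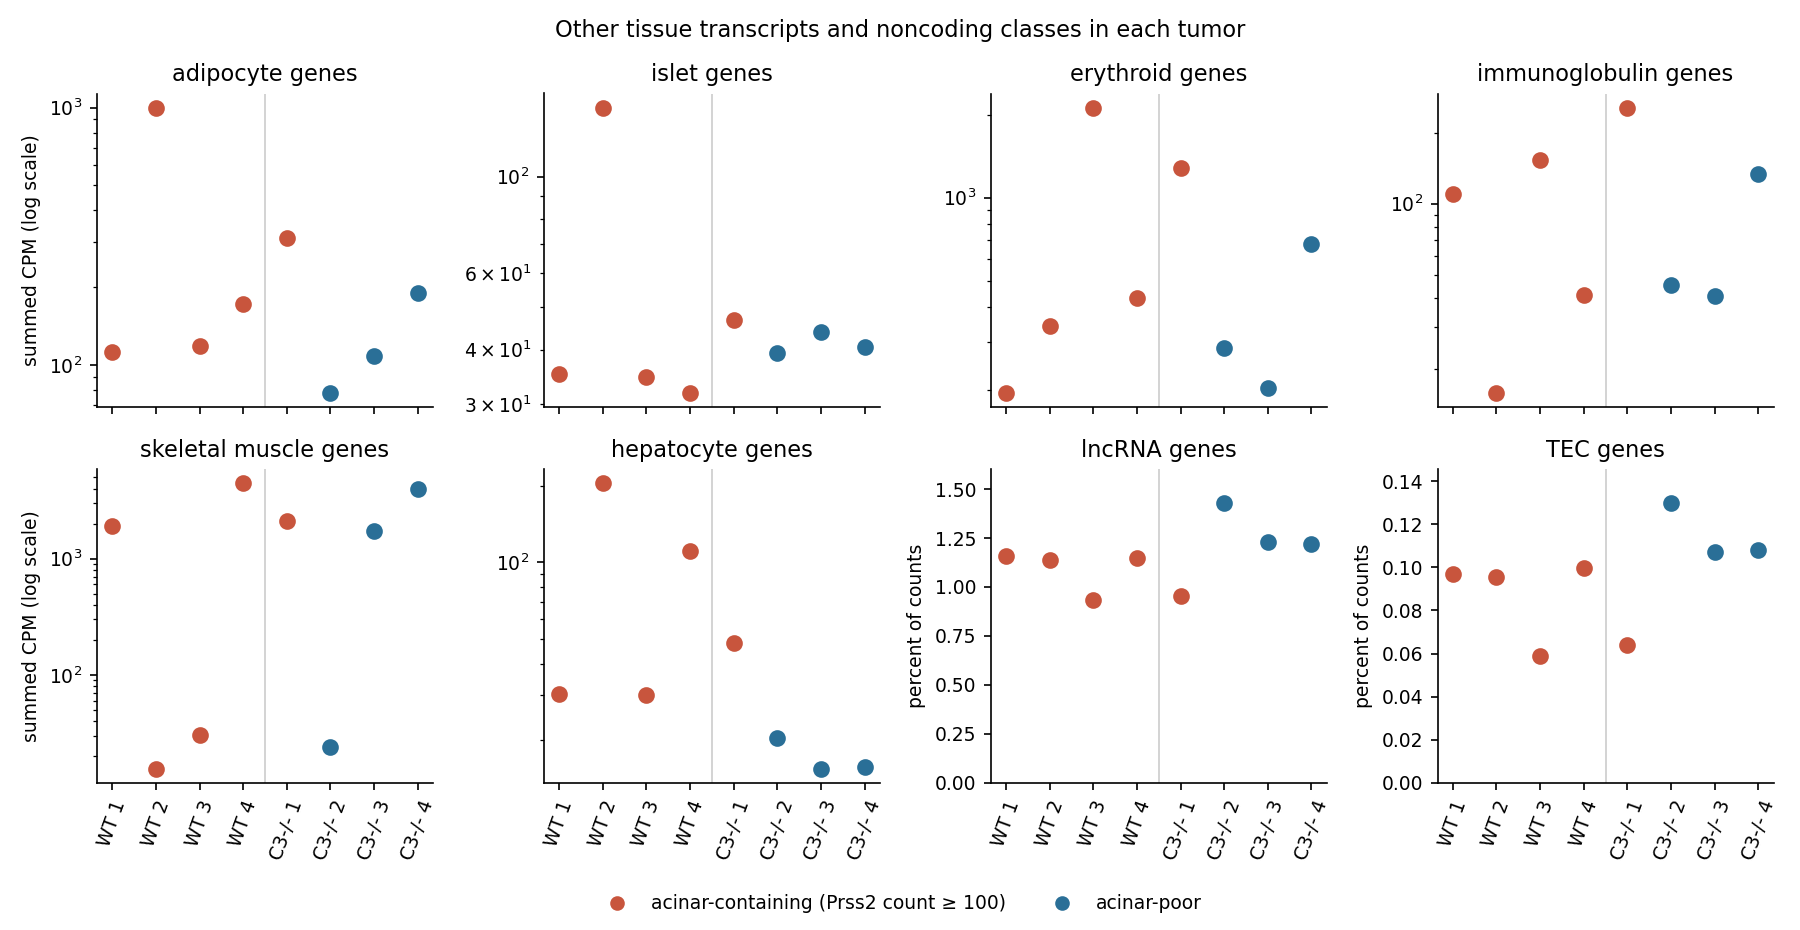
Summed CPM (log axes) of 6 lists of tissue genes and the percent of counts in lncRNA and TEC genes (linear axes from 0), with 1 point per tumor, acinar-containing in red and acinar-poor in blue. Adipocyte and islet genes peak in WT 2, immunoglobulin genes in C3-/- 1, muscle genes fall into high and low tumors of both groups, and the lncRNA and TEC shares of the acinar-poor tumors lie above those of all acinar-containing tumors.

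Several lists for the tumor and its stroma had medians nearer to that of all genes, at -0.07 for ductal and metaplasia, 0.36 for tumor epithelium, 0.26 for fibroblast, 0.05 for endothelial, 0.08 for leukocyte and 0.22 for cell cycle genes. None of the 13 ductal and metaplasia genes, 8 tumor epithelium, 10 fibroblast, 8 endothelial, 11 leukocyte or 10 cell cycle genes that passed was separated by 2-fold, as few genes were among all those tested (0.385% higher and 0.632% lower). Mesothelial genes had a median of 0.57, and 1 of the 5 that passed was separated and higher. Lymphocyte genes had a median of -0.41 over the 2 that passed, with 0 separated. Krt19, a ductal keratin, gave 16468 to 33368 counts in acinar-containing and 12850 to 15737 in acinar-poor tumors, a difference of 0.54 in mean log2 CPM (SE 0.22), with overlap in CPM. Krt8 and Krt18, keratins of simple epithelium, were at 2050 to 3453 and 1438 to 2691 CPM against 1802 to 1947 and 1171 to 1321 CPM, without overlap, and differed by 0.53 (SE 0.13) and 0.57 (SE 0.17), under the 2-fold limit. Col1a1, the main fibrillar collagen, differed by 0.46 (SE 0.44), and Mki67, a marker of dividing cells, by 0.05 (SE 0.20). The chaperone Hspa5, induced by the unfolded protein response, differed by -0.03 (SE 0.09).

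The 105 lower genes were mostly noncoding and low in count. Protein-coding genes were 33 of the 105 (31.4%), lncRNA genes 33 (31.4%) and TEC genes, which are transcribed regions still to be experimentally classified, 25 (23.8%), against 84.4%, 8.12% and 1.97% of all genes tested. The largest difference was that of E230020D15Rik, a TEC gene, at -2.07 (SE 0.49), with 21, 17, 5 and 47 counts in WT, 7 in C3-/- replicate 1 and 93, 60 and 59 in the acinar-poor tumors. Mir186, counted over its hairpin, gave 0 to 34 counts against 37 to 53, and Oprd1, the delta opioid receptor, 3 to 32 against 36 to 51. Pcdhgb8, a clustered protocadherin, gave 3 to 23 counts against 35 to 43. WT replicate 3 was at 0 counts for Gm37524, Gm45073, Gm16185, Gm37121, Gm28913 and Gm16386, genes in which the acinar-poor tumors had 12 to 80.

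Shares of counts over whole libraries also differed between the groups, and they include the lncRNA and TEC genes among the 105. The lncRNA share of all counts was 0.932% to 1.16% in acinar-containing and 1.22% to 1.43% in acinar-poor tumors, and the TEC share was 0.0587% to 0.0998% against 0.107% to 0.130%, neither overlapping. WT replicate 3 and C3-/- replicate 1 had the lowest values of both. The share of the mitochondrial genome was 1.17% to 2.05% against 1.94% to 2.12% and overlapped. The part of these shares in the 105 genes was not tested.

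Within the C3-/- genotype, C3-/- replicate 1 was above all 3 other C3-/- tumors and at least 2-fold over their mean in 676 genes (4.07%), and below all 3 by the same margin in 899 (5.41%). With 1 tumor on one side, this comparison has no replicate check. Of the 45 acinar genes that passed the filter, 31 were among the 676 and none among the 899, and so were all 6 Reg genes. Prss2 was 269-fold, Ctrb1 201-fold and Reg2 237-fold above the mean CPM of the other C3-/- tumors.

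Outside the acinar and Reg lists, several of the large differences were in genes of blood cells and of fat. Slc4a1, the red cell anion exchanger, gave 1286 counts in C3-/- replicate 1, 131, 4 and 55 in the other C3-/- tumors and 9 to 101 in WT. Car1 and Trim10, further genes of developing red cells, gave 225 and 165 counts in C3-/- replicate 1 and at most 14 and 22 in any other tumor. On a list of erythroid genes drawn up after the counts were seen, 14 of the 15 that passed were above all 3 other C3-/- tumors, but the sum of the list was higher still in WT replicate 3, at 2120 CPM against 1283, through the haemoglobin genes. Ngp, a neutrophil granule protein, gave 531 counts in C3-/- replicate 1 and 4 to 63 elsewhere. Of 7 granulocyte granule genes that passed, on a list also drawn up afterwards, 4 were above all 3, against 4.07% of all genes tested. The sum of that list was 472 CPM in C3-/- replicate 1, 414 in C3-/- replicate 2 and 542 in WT replicate 3.

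Immunoglobulin genes, another list drawn up afterwards, were above in 9 of 10, with Ighg2c at 604 counts against 68, 33 and 115 and Igkc at 1825 against 218, 199 and 688. In adipocyte genes the number was 6 of 8, and over all genes tested the share above was 4.07%. Cfd, the fat-derived complement factor D, gave 2214 counts in C3-/- replicate 1 and 93, 155 and 213 in the other C3-/- tumors, but 2168 in WT replicate 2, and Retn, the adipokine resistin, gave 91 against 7 in each of the 3 and 301 in WT replicate 2. Of the 899 genes below, 45.5% were protein-coding, 28.1% lncRNA and 14.2% TEC genes. This comparison shares C3-/- replicate 1 and the 3 acinar-poor tumors with the larger one, so a likeness between their lower genes is no separate result. A930004J17Rik, a TEC gene, gave 13 counts in C3-/- replicate 1 against 147, 130 and 122, and 14 in WT replicate 3. Gpr63, an orphan receptor, gave 0 against 18 in each of the 3.

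The comparison that the labels define, C3-/- against WT, is changed by the same tumor. In edgeR's quasi-likelihood test over 4 and 4 tumors, 0 of 16610 genes (0%) had an adjusted p below 0.05, 848 had an unadjusted p below 0.05, and DESeq2 called 16. The log2 fold change, C3-/- over WT, was 0.94 (SE 1.49) for Prss2, 0.94 (SE 1.5) for Ctrb1, 0.82 (SE 1.48) for Try5 and 0.61 (SE 1.45) for Reg2, each with an edgeR adjusted p of 0.999. The sign depends on the model as well, since with all 8 tumors kept limma-voom gave -2.83, -2.69, -2.95 and -3.12 for these genes. Adding the replicate number to edgeR as a block gave -3.30, -3.34, -3.61 and -3.54. The labels do not state that equal replicate numbers pair a WT with a C3-/- tumor, so the block has no basis in the design. Neither of these fits called a gene, with 853 and 683 genes at an unadjusted p below 0.05. DESeq2 set no p for these 4 genes. Without C3-/- replicate 1, edgeR called 4 of 16882 genes (0.0237%), and they were Prss2, Ctrb1, Try5 and Reg2, all lower in C3-/-. Their log2 fold changes were then -5.13 (SE 0.46), -4.73 (SE 0.55), -5.12 (SE 0.55) and -5.28 (SE 0.44), with edgeR adjusted p of 0.00986, 0.0393, 0.0273 and 0.00986. The tumor left out is the one that the Prss2 count sets apart, so these p-values are not independent of the grouping.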

How the data were processed

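RNA of 8 KPC tumors, 1 per mouse, was compared. The authors deposited raw counts per gene on mm39 (GRCm39), with normalized signal, FPKM values and their own log2 fold changes and p-values. Only the deposited counts were used. The submitters' processing notes name HISAT2 2.0.5 and DESeq2 1.20.0, whereas the methods name STAR and HTSeq, and the strand setting is not given in the sources used here.

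Libraries of 13.3 to 23.4 M counts were scaled by TMM in edgeR 4.0.16 (R 4.3.3), after filterByExpr with a minimum count of 10. Levels are CPM, and log2 CPM uses a prior count of 2. C3-/- and WT were compared by edgeR's quasi-likelihood test with Benjamini-Hochberg adjustment. Acinar-containing and acinar-poor tumors were described without a test. Folds against tumors all at 0 used a floor of 3 counts per library. The pipeline was tested on simulated data. DESeq2 1.42.0, limma-voom (limma 3.58.1), other filters and scalings, the replicate number as a block and each tumor left out in turn were alternatives. No 2 libraries repeated each other, as the lowest chi-square per gene between any pair was 15. Promoters were read from the GRCm39 genome with pysam 0.24.0, and lists were matched by symbol and, where the table lacked a symbol, by gene ID through GENCODE vM39, which matched 1 of 4 (Prss3b).

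The members and lists were chosen with earlier results of these data known. Named genes were the grouping markers, the 3 most abundant of each acinar list and 2 of each other list, the 12 largest separated differences in each direction outside the acinar lists, the 8 largest in each direction for C3-/- replicate 1, C3, and genes called between genotypes. Other genes are named as list members. The lists of erythroid, granulocyte granule, immunoglobulin and acute-phase genes were added after the counts were seen. Some items are not reported here.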

Additional observations from a re-analysis of the deposited data

Results flagged for a closer look

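A tumor was singled out where its gap to the nearest tumor of its genotype, over the range of the genotype, exceeded Dixon's critical value for 4 tumors. Of 188 groups of 4 tumors examined, 25 did so. Chance would give about 9.4 over independent groups, but genes of a list share tumors, and 10 of the 25 are acinar values of C3-/- replicate 1, whose Prss2 count set the grouping, so no excess over chance is read from the total. Its log2 summed CPM was 9.43 for trypsinogens, 10.3 for chymotrypsins and elastases, 8.10 for carboxypeptidases and 11.4 for digestive enzymes, and enzymes held 0.260% of its counts. Its log2 CPM was 7.90 for Prss2, 7.01 for Cela3b, 6.29 for Pnlip, 5.81 for Rnase1 and 4.52 for Amy2a4, against at most 0.545 in the other C3-/- tumors. It was also high in Krt8, at 11.6.

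WT replicate 2 stood above the WT tumors in the islet list, with a log2 summed CPM of 7.17 against 4.99 to 5.13, and in Ins2, with a log2 CPM of 5.01. C3-/- replicate 2 was low in the skeletal muscle list, at 4.59 against 10.8 to 12, in Acta1 at -0.981 and in Cd4 at -1.56. WT replicate 3 was low in its share of TEC (0.0587%) and lncRNA counts (0.932%) and high in S100b at 4.98. C3-/- replicate 4 was low in the mesothelial list at 8.52, in Msln at 8.45 and in Spp1 at 12.5. WT replicate 1 was low in Wt1 at 2.03, and high in Pdx1 at 5.07 and in the share of Dmbt1, at 0.2% of counts.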

How the results depend on the processing

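The 64 higher and 105 lower genes became 123 and 326 without a filter on low counts, and 19 and 30 with at least 10 counts in every tumor, a filter that removes most genes near 0 in the acinar-poor tumors. The 676 and 899 genes of C3-/- replicate 1 became 1862 and 2109, and 440 and 457, under the same filters. With protein-coding genes only (chosen after seeing the data), the lower genes were 33 and those below in C3-/- replicate 1 were 409. Leaving out 1 tumor gave 76 to 147 higher genes, with 138 without C3-/- replicate 2 and 147 without C3-/- replicate 4, and 72 to 186 lower genes, with 72 without WT replicate 3 (64 of them among the 105), 186 without WT replicate 4, 186 without C3-/- replicate 2 and 184 without C3-/- replicate 4. It gave 669 to 977 genes above and 939 to 975 below for C3-/- replicate 1. Without WT replicate 3 the lower genes decreased although fewer tumors make separation easier to meet, and several of the largest, at 0 counts in that library, came closer to 0 (Gm16185 from -1.79 to -0.94, Mir186 from -1.94 to -1.29). Without WT replicate 2 and C3-/- replicate 1 together (added after seeing the data) the counts were 126 and 181, of which 59 and 84 were in the first 64 and 105. The median acinar share of 0.237% was 0.0459% for digestive enzymes only and 0.115% without Dmbt1, both added later, and 0.224% to 0.297% with 1 tumor left out.

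In C3-/- against WT, DESeq2 called 16 genes and edgeR 0, and leaving out 1 tumor gave 0 to 4 genes and 0 to 3 acinar genes, with 4 and 3 without C3-/- replicate 1. The C3 log2 fold change was -1.42 in DESeq2 with an adjusted p of 1.28e-05, and -1.55 to -1.19 with a tumor left out. The fold changes of Prss2, Ctrb1, Try5 and Reg2 turned negative in limma-voom (-2.83, -2.69, -2.95 and -3.12), which averages logs, and with the replicate number as a block (-3.30, -3.34, -3.61 and -3.54). With a tumor left out they ranged from -5.13 to 1.35, -4.73 to 1.36, -5.12 to 1.24 and -5.28 to 1.02, negative only without C3-/- replicate 1. The block called 0 genes. Deviations of tumors with the same replicate number correlated at -0.03, 0.49, -0.36 and 0.59. Tumors with unlike numbers were not compared, so this does not settle whether the numbers pair the tumors, and the labels state no pairing. Genes under 3 counts are below what this depth resolves.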
